A study of Homo sapiens with 32 samples.

Results

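The response of MOCOS-depleted LNCaP cells to thapsigargin (TG) was described from 8 of the 32 libraries of the series, chosen by their labels alone: 4 of siMOCOS cells given TG and 4 of siMOCOS cells without it. LNCaP is an androgen-sensitive line grown from a lymph node metastasis of a human prostate cancer. Both sides carried siRNA against MOCOS, so the knockdown is shared by the treated cells and their controls. The other groups used here for comparison were LNCaP cells with a control siRNA (siCTRL), with and without TG, and siMOCOS cells of C4-2B, a descendant of LNCaP that grows without androgen, with and without TG, 4 libraries each. The series describes the cells without TG as treated with vehicle and the replicates as biological, and neither dose nor duration of TG could be read from the sources used here. The labels list 2 siRNAs against MOCOS, and the table does not say which column belongs to which. The 4 knockdown libraries of a side were therefore taken as 1 group, and p-values treat libraries of different siRNAs as replicates.

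MOCOS encodes molybdenum cofactor sulfurase, which adds the final sulfur that 2 enzymes need on their cofactor, xanthine dehydrogenase (gene XDH) and the aldehyde oxidase AOX1. XDH carries out the last steps of purine breakdown, from hypoxanthine to uric acid. TG blocks the SERCA pump that fills the endoplasmic reticulum (ER) with calcium, and unfolded proteins then build up there. Cells answer through a set of ER sensors: IRE1 splices XBP1 mRNA, ATF6 is cut free to act as a transcription factor, and PERK slows translation while ATF4 and CHOP are made. Luminal prostate cells, which secrete large amounts of protein, depend on this pathway and on androgens.

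RNA was polyadenylated and libraries were strand-specific. The siMOCOS libraries held 7.51 to 15.7 M deposited counts each without TG and 18.9 to 27.1 M with TG, ranges that do not overlap. In siCTRL LNCaP libraries they were 12.1 to 19.9 M and, with TG, 11.7 to 20.3 M. Thinning every library to the smallest total left 3120 genes higher and 2786 lower with TG, against 3463 and 3022 at full depth. Levels are given as CPM, counts scaled to library size, and changes as log2 ratios with TG over without. A gene was called when its adjusted p in edgeR's quasi-likelihood test was under 0.05. Of 13806 genes tested, 3463 were higher with TG (25.1%) and 3022 were lower (21.9%), together 47.0%. Among the called genes, 1291 rose and 820 fell by at least 2-fold. The libraries of the sides did not overlap for 40.1% of all genes tested. Values of single libraries are given in the order of their column numbers, 1 to 4.

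Markers of luminal prostate cells were present in every library, and those of other cell types were mostly near 0. The summed level of 11 luminal markers was 5350 to 7170 CPM in siMOCOS libraries and 2780 to 3230 CPM with TG. Basal and mesenchymal markers summed to 335 to 518 CPM and 321 to 530 CPM, nearly all of it FN1 (fibronectin), with CDH2 at 0. Of 6 of them tested, 3 rose and 1, TWIST1, fell (log2 -0.85, adjusted p = 0.00422). The others did not pass the filter on low counts. TP63 and ZEB1, near 0 without TG, could pass it through their levels with TG alone. This count is therefore partly set by the filter. TP63 was at 0 to 0.138 CPM without TG and 0.568 to 1.55 CPM with it. ZEB1 was at 0 to 0.131 CPM and 0.618 to 0.949 CPM, and SNAI2 at 1.17 to 1.4 CPM and 2.8 to 9.89 CPM. Neuroendocrine markers summed to 10.7 to 14.2 CPM and 9.47 to 16.9 CPM, with INSM1 at 0. Of 12 stromal, endothelial and immune markers, the sum went from 20.5 to 31.6 CPM to 127 to 239 CPM. ACTA2, smooth muscle actin, accounted for most of that rise, from 8 ± 2 to 156 ± 57.7 CPM (SD, n = 4; log2 4.26, SE 0.258, adjusted p = 5.8e-10). Of 5 of these markers that passed the filter, 3 rose and 0 fell. COL1A1 was at 4.47 to 5.73 CPM without TG and 9.84 to 15.8 CPM with it. VWF was at 2.86 to 6.49 CPM and 7.56 to 8.71 CPM, and CD68 at 5.31 to 8.85 CPM and 4.74 to 7.83 CPM. COL1A2, a fibroblast collagen, was at 0, and PTPRC, CD3E and PECAM1 reached at most 0.0515, 0.0949 and 0.0515 CPM in any library with TG. In bulk RNA, fewer cells of a type and less RNA per cell cannot be told apart.

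MOCOS itself (chromosome 18, 36187519 to 36272157, plus strand, GENCODE v29 on hg38) rose with TG in the depleted cells. Its level was 3.79, 3.32, 3.26 and 3.67 CPM in the siMOCOS libraries and 9.45, 11.9, 15.5 and 18.5 CPM with TG. Every TG library was above every untreated one, and all 4 stayed below the siCTRL libraries without TG, which held 24.1, 22.9, 22.8 and 22.6 CPM. The change was log2 1.98 (SE 0.173, adjusted p = 5.13e-08) in siMOCOS cells and log2 1.98 in siCTRL cells, with a difference of -0.01 (95% interval -0.48 to 0.47). Knockdown lowered MOCOS by log2 -2.72 both without TG (adjusted p = 5.18e-08) and with it (adjusted p = 6.29e-09).

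XDH (chromosome 2, 31334321 to 31414715, minus strand) rose from 2.75, 3.11, 4.29 and 5.03 CPM to 28.2, 32.6, 29.5 and 32 CPM. The sides lay far apart, and the change was log2 3.05 (SE 0.156, adjusted p = 8.2e-11). In siCTRL cells it was log2 2.76, and the difference of 0.29 had a 95% interval of -0.16 to 0.74. AOX1 (chromosome 2, 200585868 to 200677064, plus strand), the other client of MOCOS, went from 0.328 ± 0.0631 to 1.05 ± 0.34 CPM (SD, n = 4; log2 1.63, SE 0.425, adjusted p = 0.00389). It was called in siMOCOS cells and not in siCTRL cells (log2 0.81, adjusted p = 0.167), but the difference was not called (0.82, 95% interval -0.57 to 2.21).

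Of the 10 genes of the molybdenum cofactor pathway and its enzymes, 3 rose (XDH, MOCOS and AOX1) and 3 fell, with a median log2 of -0.19 against -0.005 over all genes tested. Over all genes tested 25.1% rose and 21.9% fell. SUOX, the molybdenum enzyme sulfite oxidase, fell from 77.3 ± 8.95 to 26.2 ± 3.82 CPM (SD, n = 4; log2 -1.56, adjusted p = 3.64e-08). MARC1, the mitochondrial amidoxime reducing component, fell by 0.83 on the log2 scale (adjusted p = 0.000348). GPHN, gephyrin, which inserts molybdenum into the cofactor, fell by 0.32 (adjusted p = 0.0271).

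Listed genes that make, salvage or break down purines mostly pointed down. XDH, which rose by log2 3.05, was counted with the molybdenum enzymes and is not in this list. Of 21 tested (3 of 24 were below the count filter), 9 fell and 1 rose, with a median log2 of -0.30. PAICS and GART, enzymes of purine synthesis, fell by 0.58 (SE 0.0839, adjusted p = 1.73e-05) and 0.72 (SE 0.116, adjusted p = 6.32e-05) on the log2 scale. PRPS2, which makes the ribose phosphate donor, fell by 0.82 (adjusted p = 4.41e-06). HPRT1, which salvages hypoxanthine, fell from 32 ± 4.46 to 19.2 ± 1.57 CPM (SD, n = 4; log2 -0.73, adjusted p = 2.47e-05). NT5C2, a cytosolic nucleotidase that frees nucleosides from IMP and GMP, was the member that rose (204 ± 15.7 to 272 ± 4.75 CPM, SD, n = 4; log2 0.41, adjusted p = 0.000194).

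The ER stress sensors and their transducers rose as a group. Of 15 tested, 10 rose and 0 fell at the edgeR threshold, with a median log2 of 0.83. DDIT3, which encodes CHOP, went from 17.7, 15.5, 28 and 21.1 CPM to 179, 164, 274 and 271 CPM (log2 3.44, SE 0.191, adjusted p = 2.54e-10). Its TG libraries 3 and 4 lay above libraries 1 and 2, and all 4 were well above the untreated ones. ERN1, the sensor IRE1, rose from 45.3 ± 7.52 to 209 ± 20.9 CPM (SD, n = 4; log2 2.2, SE 0.138, adjusted p = 8.08e-10). CREB3, an ER-bound transcription factor that is cut free like ATF6, rose by log2 1.5 (adjusted p = 1.62e-08). Among the other sensors, XBP1 rose by log2 1.41, EIF2AK3 (PERK) by 1.25, ATF6 by 0.89 and ATF4 by 0.66. EIF2S1, the translation factor that PERK phosphorylates, had a log2 of 0 (adjusted p = 0.996).

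Chaperones of the ER lumen rose as well: 20 of 24 rose and 0 fell, with a median log2 of 1.01. DNAJB9, a co-chaperone that holds IRE1 in check, went from 38.3, 33.8, 35.6 and 41.6 CPM to 260, 297, 286 and 300 CPM. The change was log2 2.94 (SE 0.1, adjusted p = 1.07e-12). HSPA5 (chromosome 9, 125234853 to 125241330, minus strand), which encodes BiP, the main ER chaperone, went from 1320, 1090, 1600 and 1660 CPM to 6120, 6840, 5420 and 4750 CPM. Its lowest TG library was above its highest untreated library (log2 2.03, SE 0.132, adjusted p = 1.41e-09). FKBP14, an ER prolyl isomerase, rose by log2 2.34 (adjusted p = 2.54e-10) and ERO1LB, an oxidase that recharges disulfide isomerases, by log2 1.62 (adjusted p = 2.06e-08).

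The starts of chaperone genes often carry the ER stress element, to which ATF6 binds together with NF-Y. Windows of 250 bases before to 50 after the gene start were taken from RefSeq (GRCh38.p14) and searched on both strands. The ER stress element (CCAAT, then 9 of any base, then CCACG) was present in 6 of 22 chaperone windows: CALR, CANX, CRELD2, ERO1LB, HSP90B1 and HSPA5. It was present in 0.0806% of the 27305 windows in the table and in 0.162% of the 9848 windows of tested genes. TGACGTGG, an element of XBP1 and ATF6, was present in 3 chaperone windows (DNAJC10, HYOU1 and TXNDC11). Its share was 0.795% of all windows and 0.924% of those of tested genes. The same 8 bases were found in 7 of 25 windows of ER translocation and vesicle trafficking genes, COPA, COPB1, COPB2, KDELR3, SEC23A, SEC24A and SEC62. TGATGNAAT, an element of ATF4, was present in 0 of 22 chaperone windows and in 1 of 19 windows of ATF4 and CHOP effectors (FGF21). Its share was 1.02% of all windows and 0.498% of those of tested genes. A match of letters is a description and does not show binding. A comparison between called genes was void, since only 71.3% of the tested genes had a window. The windows below are those of the called members with a match and the smallest adjusted p, printed 5′ to 3′ on the strand of the gene with the matched element in capitals. They are HSPA5 (chr9:125241294-125241593, minus strand) and ERO1LB (chr1:236281909-236282208, minus strand) with the ER stress element, and HYOU1 (chr11:119057156-119057455, minus strand) and DNAJC10 (chr2:182716007-182716306, plus strand) with TGACGTGG. In ERO1LB and DNAJC10 the match is on the opposite strand, so the capitals show its reverse complement.
HSPA5: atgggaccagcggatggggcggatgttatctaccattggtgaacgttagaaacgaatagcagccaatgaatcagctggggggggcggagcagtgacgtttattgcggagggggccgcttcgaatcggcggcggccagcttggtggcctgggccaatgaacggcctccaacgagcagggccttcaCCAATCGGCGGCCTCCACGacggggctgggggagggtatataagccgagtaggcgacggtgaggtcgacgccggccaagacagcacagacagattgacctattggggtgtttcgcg
ERO1LB: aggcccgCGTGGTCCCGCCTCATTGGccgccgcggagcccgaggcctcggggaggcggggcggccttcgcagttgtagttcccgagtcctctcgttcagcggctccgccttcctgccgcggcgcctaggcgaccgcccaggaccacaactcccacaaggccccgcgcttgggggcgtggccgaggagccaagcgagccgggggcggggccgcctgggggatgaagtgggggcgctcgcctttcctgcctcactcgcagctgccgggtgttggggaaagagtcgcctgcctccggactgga
HYOU1: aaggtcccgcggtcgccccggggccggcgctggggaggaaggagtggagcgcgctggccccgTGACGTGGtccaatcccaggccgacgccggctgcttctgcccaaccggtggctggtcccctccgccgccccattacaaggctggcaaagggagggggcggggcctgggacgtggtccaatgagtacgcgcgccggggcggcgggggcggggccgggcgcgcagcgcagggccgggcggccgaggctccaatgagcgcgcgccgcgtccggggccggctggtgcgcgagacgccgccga
DNAJC10: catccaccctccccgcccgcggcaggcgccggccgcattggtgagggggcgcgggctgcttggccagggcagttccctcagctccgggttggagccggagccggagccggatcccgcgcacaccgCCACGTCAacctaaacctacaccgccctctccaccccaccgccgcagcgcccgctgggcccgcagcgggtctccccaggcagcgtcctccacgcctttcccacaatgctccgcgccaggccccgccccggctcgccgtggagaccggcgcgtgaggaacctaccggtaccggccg

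In HSPA5 the element begins 66 bases before the gene start and in ERO1LB 243 bases before it. In HYOU1 and DNAJC10 the capitals begin 188 and 125 bases before the start. The transcripts of all 4 genes rose with TG.

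Genes that carry proteins into and out of the ER, or remove them from it, rose too. Of 22 genes of ER-associated degradation, 14 rose and 1 fell (median log2 0.38). HERPUD1, a membrane protein of the degradation complex, went from 141, 115, 269 and 250 CPM to 931, 991, 1260 and 1170 CPM (log2 2.49, SE 0.205, adjusted p = 2.56e-08). SEL1L and SYVN1, the core of that complex, rose by log2 1.34 (adjusted p = 1.68e-07) and 1.57 (adjusted p = 2.66e-07), and VIMP by log2 1.6 (adjusted p = 4.2e-08). UBE2G2, a ubiquitin-conjugating enzyme, fell from 122 ± 4.73 to 85.5 ± 3.2 CPM (SD, n = 4; log2 -0.51, adjusted p = 2.55e-05). Of 30 genes of ER translocation and vesicle trafficking, 23 rose and 2 fell (median log2 0.75). SRPR, the receptor of the signal recognition particle, rose by log2 1.22 (adjusted p = 2.86e-10), and SEC31A and SEC24A, coat proteins of vesicles that leave the ER, by log2 1.33 (adjusted p = 1.78e-09) and 1.49 (adjusted p = 2.18e-08). SEC11A and SPCS1, subunits of signal peptidase, fell by 0.29 (adjusted p = 0.0205) and 0.28 (adjusted p = 0.0261). The first call was lost without siMOCOS library 4 (adjusted p = 0.0764) and the second without siMOCOS library 1 or 3 (adjusted p = 0.0717 and 0.0507).

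Of the 25 effectors of ATF4 and CHOP, 19 rose and 1 fell, with a median log2 of 1.62. TRIB3, a pseudokinase, went from 15.3, 12.6, 16.3 and 16.9 CPM to 145, 143, 142 and 135 CPM (log2 3.22, SE 0.133, adjusted p = 6e-12). VEGFA, the vascular growth factor, went from 59.7, 58.1, 74.5 and 75.8 CPM to 342, 343, 367 and 386 CPM (log2 2.43, SE 0.106, adjusted p = 9.15e-12). Both genes had tight groups far apart. SESN2, a sestrin that restrains mTORC1, rose by log2 2.81 (adjusted p = 2.38e-09) and STC2, stanniocalcin, by log2 1.89 (adjusted p = 1.56e-10). BCL2L11, which encodes the death promoter BIM, fell from 48.2 ± 7.53 to 27.2 ± 1.41 CPM (SD, n = 4; log2 -0.83, adjusted p = 2.51e-05).

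Transcripts for amino acid synthesis and transport were mostly higher too. Of 14 enzymes that make serine, asparagine, proline and one-carbon units, 11 rose and 0 fell (median log2 1.25). ASNS, asparagine synthetase, went from 88, 74.5, 79 and 88.4 CPM to 301, 308, 332 and 318 CPM (log2 1.93, SE 0.0849, adjusted p = 9.9e-12). PSAT1, of serine synthesis, rose by log2 1.51 (adjusted p = 8.3e-10), and PCK2, mitochondrial phosphoenolpyruvate carboxykinase, by log2 1.67 (adjusted p = 1.09e-09). Of 13 amino acid transporters, 10 rose and 2 fell (median log2 1.08). SLC6A9, a glycine transporter, rose by log2 2.11 (adjusted p = 5.95e-10) and SLC3A2, the shared heavy chain of several carriers, by log2 2.16 (adjusted p = 1.75e-08). SLC7A2 and SLC7A6, which carry cationic amino acids, fell by 0.91 (adjusted p = 2.07e-06) and 0.95 (adjusted p = 0.000105). Of 20 cytosolic aminoacyl-tRNA synthetases, 13 rose and 2 fell (median log2 0.62). GARS and CARS, for glycine and cysteine, rose by log2 1.72 (adjusted p = 3.47e-10) and 1.64 (adjusted p = 1.37e-10), and FARSB and QARS, for phenylalanine and glutamine, fell by 0.57 (adjusted p = 0.000599) and 0.44 (adjusted p = 0.00151).

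**Figure D1:**
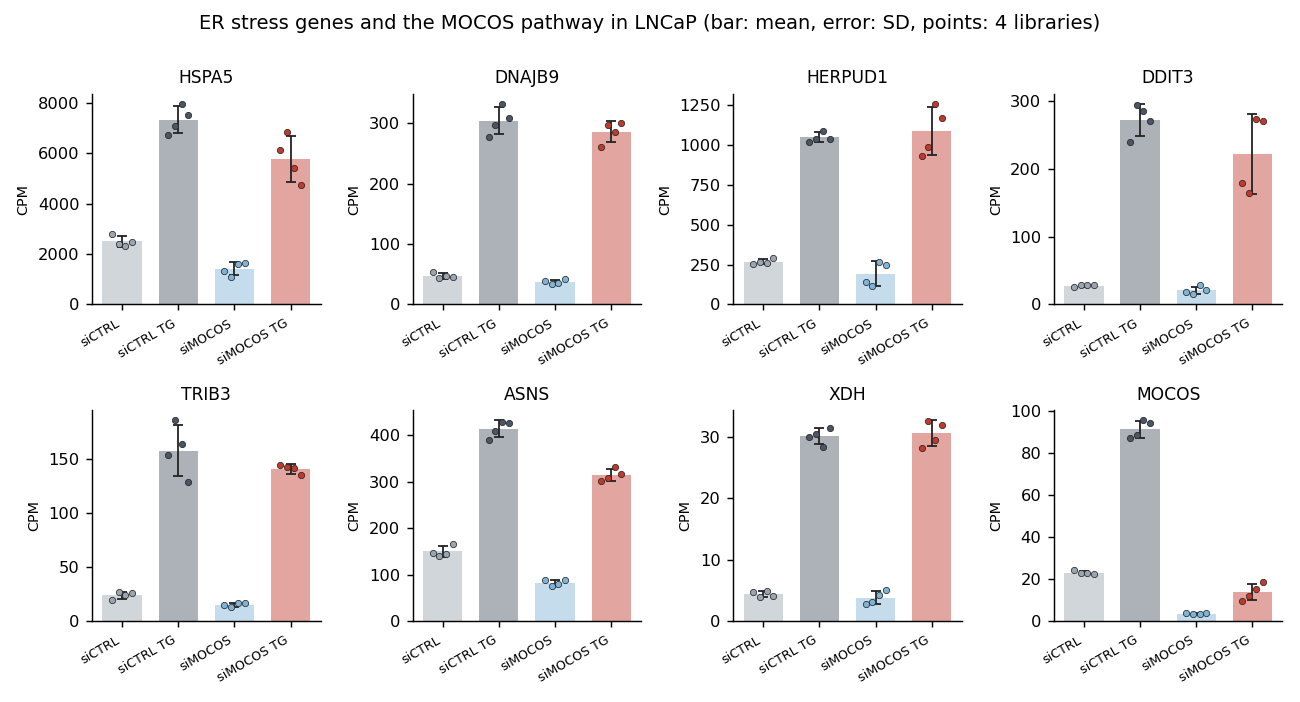
CPM of 8 genes in the 16 LNCaP libraries, by group on the x axis: bars are means, error bars SD and points the 4 libraries. In each panel every siMOCOS library with TG lies above every siMOCOS library without it. Some of these genes were named for a small adjusted p in this comparison, which favours such separation. MOCOS with TG (9.45 to 18.5 CPM) stays below the siCTRL libraries.

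Calcium handling split. Of 17 SERCA pumps and ER calcium channels and handlers, 6 rose and 1 fell, with a median log2 of 0.04, against 25.1% and 21.9% of all genes. ATP2A2, the SERCA pump that TG blocks, rose from 555 ± 66.9 to 972 ± 59.4 CPM (SD, n = 4; log2 0.81, SE 0.1, adjusted p = 3.35e-06). ATP2B1, a calcium pump of the plasma membrane, rose by log2 1.96 (adjusted p = 2.95e-08), and CALU, the calcium binder calumenin, by log2 0.92 (adjusted p = 3.66e-05). TMBIM6, an ER calcium leak protein, fell by 0.28 (adjusted p = 0.0149). That call was lost under 1 other setting, with the 2-fold threshold aside.

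The 10 greatest rises among called genes of at least 5 CPM were in ATF3, CREB5, LOC151760, C8orf4, C1orf158, LINC00346, KIAA1239, TNFRSF9, KRT80 and FAM225B. FAM225B (chromosome 9, 113103338 to 113111500, minus strand), a long noncoding RNA, had 0 counts in all 4 siMOCOS libraries and 6.84, 7.06, 2.58 and 4.94 CPM with TG. Against a floor of 3 counts over the untreated group it was at least 88-fold higher. KRT80 (chromosome 12, 52168996 to 52192000, minus strand), a type II keratin, went from 0.785, 0.553, 0.186 and 0.272 CPM to 49.2, 50.2, 38 and 47.4 CPM (log2 6.52, SE 0.272, adjusted p = 6e-12). The keratin was close to absent without TG in every library.

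TNFRSF9, a TNF receptor family member known from T cells, went from 0.0654, 0.138, 0.0932 and 0 CPM to 3.75, 3.55, 9.69 and 11.1 CPM (log2 6.27, SE 0.548, adjusted p = 4.09e-08). ATF3, a stress transcription factor, went from 23.1, 14.9, 28.7 and 32.1 CPM to 256, 236, 734 and 709 CPM (log2 4.31, SE 0.342, adjusted p = 1.61e-08). CREB5, of the same bZIP class, went from 1.64, 1.59, 1.96 and 1.77 CPM to 25.1, 26, 45.1 and 41.9 CPM (log2 4.32, SE 0.261, adjusted p = 5.8e-10). In each of these genes libraries 3 and 4 with TG were higher than libraries 1 and 2.

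KIAA1239 showed that split as well, from 0.262, 0.207, 0 and 0 CPM to 4.27, 4.22, 13.3 and 12.1 CPM (log2 5.8, adjusted p = 2.27e-07). So did C8orf4, from 1.7, 1.24, 1.3 and 1.77 CPM to 24.6, 22.3, 43.1 and 39.9 CPM (log2 4.44, adjusted p = 1.65e-10). The reverse order held for LINC00346, a noncoding RNA, which went from 0.327, 0.207, 0.28 and 0.408 CPM to 13.4, 13.2, 7.88 and 8.66 CPM (log2 5.16, adjusted p = 3.3e-09). C1orf158 had it too, with 0.458, 0.76, 0.466 and 0.952 CPM without TG and 17.9, 18.5, 10.3 and 11.9 CPM with it (log2 4.52, adjusted p = 8.3e-10). LOC151760 was even across the TG libraries, going from 0.589, 0.829, 0.186 and 0.816 CPM to 11.2, 11.8, 13 and 13.1 CPM (log2 4.33, adjusted p = 1.75e-09).

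**Figure D2:**
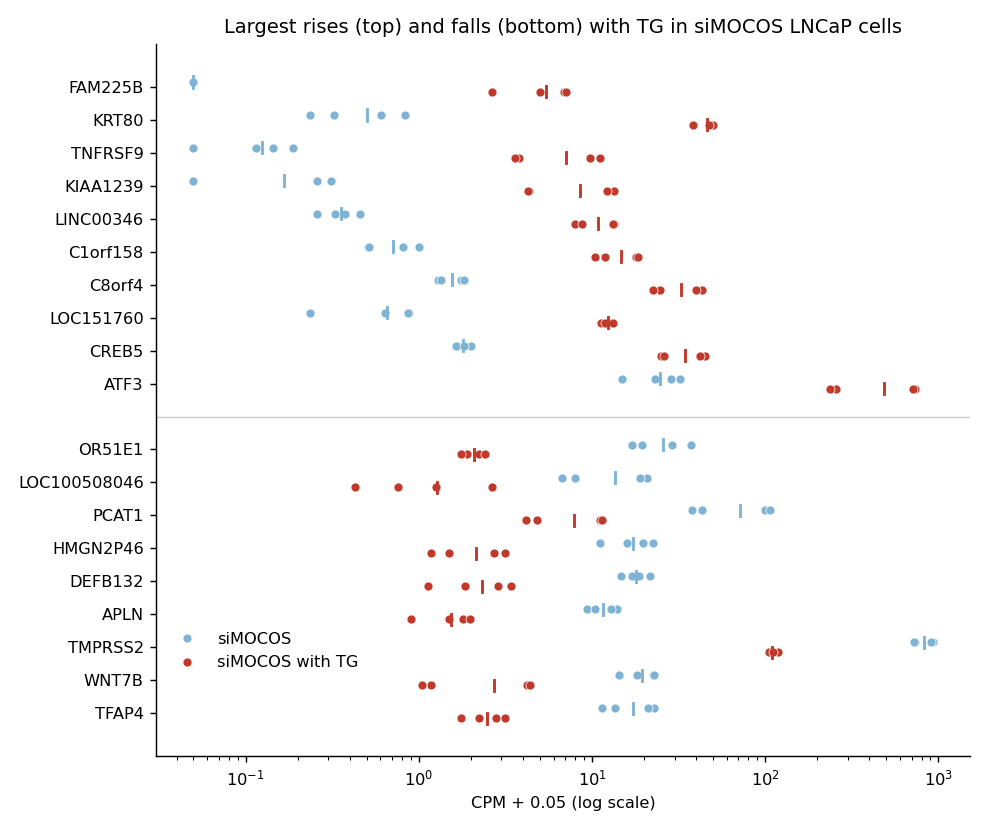
CPM plus a pseudocount of 0.05 on a log axis for the 10 greatest rises (top) and 9 of the greatest falls (bottom), each point a siMOCOS library with or without TG and each vertical tick a group mean. The sides do not overlap in any of the 19 genes, a condition of their choice.

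The greatest falls included genes known from prostate. OR51E1 (chromosome 11, 4643420 to 4655488, plus strand), an olfactory receptor expressed in prostate, went from 19.3, 17, 29.1 and 37 CPM to 2.18, 1.85, 2.37 and 1.71 CPM (log2 -3.65, SE 0.234, adjusted p = 1.09e-09). TMPRSS2 (chromosome 21, 41464551 to 41531116, minus strand), an androgen-regulated serine protease, went from 729, 723, 936 and 906 CPM to 105, 105, 119 and 111 CPM (log2 -2.91, SE 0.11, adjusted p = 2.26e-12). The TG libraries of OR51E1 and TMPRSS2 lay close together although the untreated ones differed.

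PCAT1 (chromosome 8, 126556323 to 127419050, plus strand), a noncoding RNA of prostate cancer that GENCODE lists as antisense, went from 43.1, 37.9, 99.1 and 106 CPM to 4.79, 4.12, 11 and 11.3 CPM (log2 -3.2, adjusted p = 6.44e-07). No source used here says whether the authors' counting used strand. TFAP4, a helix-loop-helix factor, went from 11.4, 13.5, 22.6 and 21.1 CPM to 2.18, 1.7, 2.73 and 3.1 CPM (log2 -2.81, adjusted p = 4.56e-08). WNT7B, which signals through Frizzled receptors, went from 22.3, 22.9, 18.1 and 14.2 CPM to 4.18, 4.33, 1.13 and 0.988 CPM (log2 -2.85, adjusted p = 5.23e-06). APLN, the peptide hormone apelin, went from 13.9, 12.9, 9.32 and 10.3 CPM to 1.76, 1.92, 1.44 and 0.853 CPM (log2 -2.95, adjusted p = 4.56e-08). Others were LOC100508046 (log2 -3.48), the pseudogene HMGN2P46 (log2 -3.04), whose reads may be shared with copies of its parent gene, and DEFB132, a beta-defensin (log2 -2.98).

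Androgen-regulated genes of prostate fell as a group. Of 29 tested, 21 fell and 3 rose, with a median log2 of -0.98. KLK3, which encodes prostate-specific antigen, went from 1320, 1280, 2160 and 1830 CPM to 351, 335, 404 and 319 CPM (log2 -2.22, SE 0.154, adjusted p = 2.96e-09). TRPM8, a cold-sensing ion channel, fell from 41.4 ± 1.86 to 16.7 ± 1.23 CPM (SD, n = 4; log2 -1.31, adjusted p = 4.91e-08). The members that rose were ACPP, prostatic acid phosphatase (143 ± 36.4 to 228 ± 33.3 CPM, SD, n = 4; log2 0.66, adjusted p = 0.00287), ZBTB10 (log2 0.94, adjusted p = 0.000318) and EAF2, an elongation factor partner (log2 1.49, adjusted p = 1.5e-05).

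Transcription factors of luminal cells fell with them in part. HOXB13, the prostate homeobox factor, fell by 1.69 on the log2 scale (adjusted p = 7.42e-09). Of 12 such factors tested, 6 fell and 3 rose (median log2 -0.41), against 21.9% and 25.1% of all genes. The share that rose was near that of all genes. The risers were NR3C1, the glucocorticoid receptor (4.46 ± 2.53 to 15 ± 3.55 CPM, SD, n = 4; log2 1.70, adjusted p = 4.36e-05), KLF5 (log2 1.65, adjusted p = 4.33e-06) and ETV1 (log2 0.38, adjusted p = 0.0113), the last not called without TG library 2 (adjusted p = 0.0668). Among 11 luminal markers, 7 fell and 3 rose, and keratins 8 and 18 were among the risers (KRT18 log2 0.85, adjusted p = 1.18e-05; KRT8 log2 0.44, adjusted p = 0.0235). The KRT8 call was lost without siMOCOS library 1 (log2 0.34, adjusted p = 0.0832), TG library 1 (log2 0.29, adjusted p = 0.125) or TG library 2 (log2 0.40, adjusted p = 0.0622), and with upper quartile scaling (adjusted p = 0.0525).

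Genes of replication and mitosis, already low after knockdown, fell further in part. Knockdown without TG had lowered 28 of 30 replication genes and 30 of 30 mitosis genes against siCTRL cells, where 9.73% of all genes tested were called lower. With TG, 13 replication genes fell and 1 rose (median log2 -0.30), and 14 mitosis genes fell and 1 rose (median log2 -0.44). UHRF1, which keeps DNA methylation through replication, fell by 1.72 on the log2 scale (adjusted p = 4.56e-08) and PCNA, the sliding clamp, by 1.16 (adjusted p = 2.54e-05). BUB1B, a spindle checkpoint kinase, fell from 40.4 ± 12.7 to 16.5 ± 1.19 CPM (SD, n = 4; log2 -1.30, adjusted p = 4.06e-06). In siMOCOS columns 1 and 2 alone 23 of 30 mitosis genes fell. In columns 3 and 4 alone 7 of 30 fell, a share near that of all genes. Over all genes tested, columns 1 and 2 alone called 19.0% higher and 21.1% lower, and columns 3 and 4 alone 22.9% higher and 20.8% lower.

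CDC6, which loads the replicative helicase at origins, was the replication gene that rose. It went from 27, 22.7, 23.9 and 23.5 CPM to 78.5, 75.2, 83.1 and 77.6 CPM (log2 1.69, SE 0.0919, adjusted p = 1.84e-10). Its TG libraries reached the level of siCTRL cells without TG, which held 80.1, 77.3, 72.9 and 93.4 CPM. CDC20, an activator of the anaphase-promoting complex, was the mitosis gene that rose (11.3 ± 2.58 to 16.1 ± 3.93 CPM, SD, n = 4; log2 0.50, adjusted p = 0.0238). That call was lost without siMOCOS library 3 or 4, or without TG library 1 or 2 (adjusted p = 0.0862, 0.0623, 0.124 and 0.0932). Among 24 G1 cyclins, inhibitors and E2F factors, 10 fell and 5 rose, against 21.9% and 25.1% of all genes. The share that rose was below that of all genes. MYC fell from 154 ± 42.8 to 26.1 ± 3.05 CPM (SD, n = 4; log2 -2.56, adjusted p = 8.01e-10), while the kinase inhibitors CDKN1B and CDKN2B rose by log2 1.43 (adjusted p = 2.83e-09) and 2.50 (adjusted p = 1.1e-08).

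Cytosolic chaperones moved opposite to those of the ER. Of 17 cytosolic heat shock genes, 10 fell and 4 rose (median log2 -0.51), and of 8 subunits of the chaperonin CCT, which folds actin and tubulin, 7 fell and 0 rose (median log2 -0.35). HSPA8, the constitutive HSP70, went from 4330, 3660, 3160 and 3250 CPM to 1030, 962, 765 and 718 CPM (log2 -2.05, SE 0.125, adjusted p = 6.31e-10). HSP90AA1 fell by 1.10 on the log2 scale (adjusted p = 2.17e-08) and CCT3 by 0.62 (adjusted p = 5.46e-05). HSPA1B fell by 1.27 (adjusted p = 3.86e-07), although reads of this gene can be shared with its near-identical copy HSPA1A. DNAJB4, an HSP40 co-chaperone, rose from 30.4 ± 6.8 to 140 ± 7.81 CPM (SD, n = 4; log2 2.19, adjusted p = 1.46e-09).

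Transcripts of the ribosome and of energy metabolism declined by smaller amounts. Of 51 cytosolic ribosomal proteins, 33 fell and 0 rose, with a median log2 of -0.44 and a range of -1.04 to 0.07. RPL7A fell from 1730 ± 152 to 922 ± 102 CPM (SD, n = 4; log2 -0.91, adjusted p = 2.79e-06) and RPSA, a subunit of the small ribosome, from 2570 ± 282 to 1610 ± 62.3 CPM (SD, n = 4; log2 -0.68, adjusted p = 6.38e-06). Ribosomal protein genes have many processed pseudogenes, so their counts are uncertain. In columns 1 and 2 alone 15 of the 51 fell (median log2 -0.25), and in columns 3 and 4 alone 43 fell (median log2 -0.72). The 100 genes with the most counts held 28.9% to 29.2% of a library without TG and 22.9% to 24.7% with it, and the part of this shift in the result was not tested. Ribosomal protein transcripts are short (median 714 bases), and the 5496 tested genes within their length range had a median log2 of -0.02. These lengths are medians over all annotated transcripts of a gene, and whether length has a part in the result was not tested.

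Of 35 nuclear subunits of oxidative phosphorylation, 14 fell and 0 rose (median log2 -0.29), among them ATP5G1, of ATP synthase (log2 -1.2, adjusted p = 9.05e-06), and COX7B, of cytochrome oxidase (log2 -1.07, adjusted p = 2.06e-08). Of 24 glycolysis and hypoxia genes, 15 fell and 1, VEGFA, rose (median log2 -0.46). LDHA, lactate dehydrogenase, fell from 637 ± 35.7 to 385 ± 32 CPM (SD, n = 4; log2 -0.72, adjusted p = 6.26e-07). Of 26 nucleolar genes of ribosome biogenesis, 14 fell and 5 rose (median log2 -0.39), with NOP56, a snoRNP core protein, at log2 -0.71 (adjusted p = 1.2e-06) and GNL3, nucleostemin, at log2 0.83 (adjusted p = 5.73e-06).

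Signalling and death genes changed in both directions, where 25.1% of all genes tested rose and 21.9% fell. Of 25 p53 targets, 11 rose and 3 fell (median log2 0.55): the death receptor FAS rose by log2 1.74 (adjusted p = 7.94e-08), while SESN1 fell by 1.55 (adjusted p = 3.5e-08), TP53INP1 by 1.42 (adjusted p = 2.3e-05) and BAX by 0.60 (adjusted p = 0.0135). Of 23 BCL2 family members and death receptors, 10 rose and 5 fell, and the share that fell was near that of all genes. TNFRSF9, near 0 in siMOCOS libraries without TG, was among the risers. It could pass the filter on low counts through its level with TG alone. PMAIP1, which encodes the death promoter NOXA, rose from 11.9 ± 3.23 to 45.6 ± 21 CPM (SD, n = 4; log2 1.96, adjusted p = 1.12e-05), and BMF, another of that class, fell from 15.4 ± 4.52 to 3.94 ± 0.603 CPM (SD, n = 4; log2 -1.98, adjusted p = 9.28e-08). Of 17 early genes of the AP-1, EGR and MYC kind, 9 rose and 3 fell. DUSP5, a phosphatase of ERK, rose by log2 3.92 (adjusted p = 5.1e-08) and EGR1 fell by 1.41 (adjusted p = 0.000477).

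Of 23 Notch and Wnt genes, 12 fell and 2 rose (median log2 -0.70). NRARP, a Notch target that feeds back on the pathway, fell from 12.8 ± 1.08 to 2.43 ± 1.08 CPM (SD, n = 4; log2 -2.37, adjusted p = 2.58e-07). RNF43 and ZNRF3, ubiquitin ligases that remove Wnt receptors, fell by 1.96 (adjusted p = 3.41e-09) and 1.39 (adjusted p = 5.31e-07), and LRP5, a Wnt co-receptor, by 1.73 (adjusted p = 1.14e-06). FZD5 and HEY1 were the members that rose (log2 0.61, adjusted p = 0.0104, and log2 1.61, adjusted p = 0.00566). FZD5 was not called without TG library 4 (log2 0.39, adjusted p = 0.0712), and its value was log2 0.03 with columns 1 and 2 alone.

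Of 14 secreted factors that passed the filter on low counts, 10 rose and 1 fell. A further 10 of the list's 24 members did not pass it, so this count leaves out members that were near 0 in all groups. A member near 0 without TG could pass the filter through its level with TG alone. The share of risers and the median of this list are therefore partly set by the filter. CCL20, a chemokine, went from 0.0336 ± 0.0388 to 1.79 ± 0.0616 CPM (SD, n = 4; log2 5.20, adjusted p = 5.57e-07) and IL8 from 0.0504 ± 0.0649 to 1.37 ± 0.407 CPM (SD, n = 4; log2 4.79, adjusted p = 2.77e-06), both from levels near 0. TGFA, an EGF receptor ligand, fell by 0.58 (adjusted p = 0.00625). Of 24 interferon response genes, 9 rose and 2 fell (median log2 0.05), together 45.8% against 47.0% of all genes. The rises were led by IRF1 (log2 2.59, adjusted p = 3.98e-07) and ISG20 (log2 2.00, adjusted p = 9.31e-07).

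Of 26 autophagy and lysosome genes, 9 were higher and 6 lower (median log2 0.18), together 57.7% against 47.0% of all genes. MAP1LC3B, which coats autophagosomes, rose from 31.5 ± 4.36 to 119 ± 12.3 CPM (SD, n = 4; log2 1.93, adjusted p = 3.11e-10) and LAMP3 from 0.132 ± 0.123 to 3.51 ± 0.491 CPM (SD, n = 4; log2 4.53, adjusted p = 5.25e-08). LAMP2, a lysosomal membrane protein, fell by 0.89 (adjusted p = 5.15e-05) and the protease CTSB by 0.66 (adjusted p = 9.03e-05). Of 21 NRF2 antioxidant genes, 5 rose and 4 fell, near the 25.1% and 21.9% of all genes. SLC7A11, the cystine carrier, rose from 106 ± 50.3 to 494 ± 251 CPM (SD, n = 4; log2 2.23, adjusted p = 3.26e-05), and PRDX1, a peroxiredoxin, fell from 362 ± 22.1 to 96.7 ± 11.9 CPM (SD, n = 4; log2 -1.90, adjusted p = 5.44e-10). Of 11 polyamine genes, 3 rose and 3 fell, together 54.5%, near the 47.0% of all genes. SAT1, the acetylating enzyme of polyamine breakdown, was at log2 1.29 (adjusted p = 3.13e-09) and AMD1, of synthesis, at log2 -1.10 (adjusted p = 7.9e-05).

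**Figure D3:**
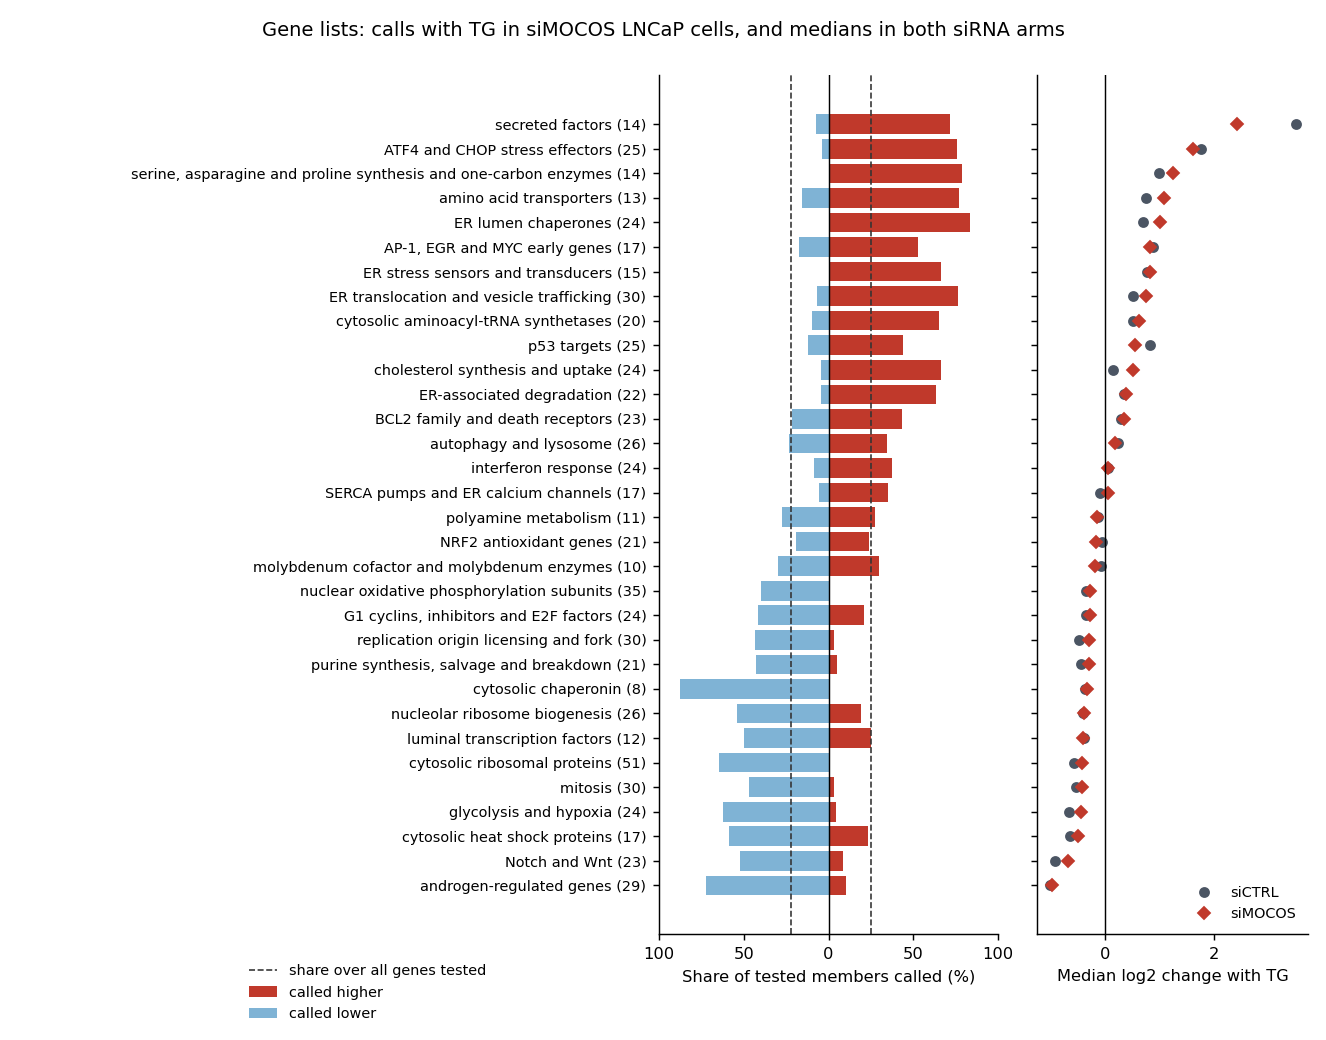
Left, the percentage of tested members of 32 gene lists (number tested in brackets) called higher (red, to the right) or lower (blue, to the left) with TG in siMOCOS LNCaP cells, with dashed lines at the shares over all genes tested, 25.1% and 21.9%. Right, the median log2 change of each list in siMOCOS (diamonds) and siCTRL cells (circles), from secreted factors at 2.43 to androgen-regulated genes at -0.98 in siMOCOS cells. Of 24 secreted factors 14 passed the filter on low counts, which could admit members through their level with TG alone.

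The question of whether depletion of MOCOS changes the answer to TG was addressed by the difference between the TG response of siMOCOS and of siCTRL cells, 2 contrasts that share no library. In siCTRL cells 49.7% of the genes were called, 3394 higher and 3467 lower. Genes called higher in both numbered 2814, which is 81.3% of those in siMOCOS and 82.9% of those in siCTRL cells. Genes called lower in both numbered 2548, or 84.3% and 73.5%. The log2 changes correlated at r = 0.86 across the 13806 genes, as a description, since genes of a library are not independent. For 5079 of the genes called in siMOCOS cells (78.3%) the 95% interval of the difference lay within -1 and 1 on the log2 scale. Over all genes tested this held for 9818 (71.1%).

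INSIG1 was the single gene with a called difference (0.00724% of those tested). INSIG1 (chromosome 7, 155297776 to 155310235, plus strand) is an ER protein that holds back the sterol sensor SCAP and with it SREBP2, the factor that turns on cholesterol synthesis. It went from 79.7, 77.8, 77.6 and 78.1 CPM to 122, 125, 95.9 and 94.3 CPM with TG in siMOCOS cells, and from 123, 106, 108 and 104 CPM to 71.2, 76, 76.7 and 79.6 CPM in siCTRL cells. The level rose in the depleted cells (log2 0.48, SE 0.0999, adjusted p = 0.000676) and fell in the controls (log2 -0.54, SE 0.0998, adjusted p = 0.000215), with no overlap of libraries in either arm. The difference was 1.02 (SE 0.141, 95% interval 0.73 to 1.32, adjusted p = 0.0149). Without TG, knockdown had lowered INSIG1 by log2 -0.50 (adjusted p = 0.00261).

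The INSIG1 call was lost when any of 10 of the 16 libraries was left out, with adjusted p up to 0.168, and with thinning (adjusted p = 0.065). These were siCTRL library 1, all 4 siCTRL libraries with TG, siMOCOS libraries 2, 3 and 4, and siMOCOS libraries 1 and 2 with TG. The difference itself stayed between 0.87 and 1.05. The replicate block, which pairs columns by number, called 6 genes higher and 2 lower. INSIG1, SQLE and ACTA2 (difference 1.62, adjusted p = 0.0383) were among the higher ones, and GPR158 and HIST1H2BD were the lower ones. Without the block and with TMM scaling, edgeR called 0 genes with a lower response in siMOCOS cells, and 593 were higher and 325 lower at an unadjusted p under 0.05. With upper quartile scaling it called GPR158 lower. DESeq2 called 31 higher and 24 lower, and limma voom 1 and 0. With columns 1 and 2 alone as the knockdown group 83 were higher and 245 lower, and with columns 3 and 4 alone 12 and 7. Only GPR158, INSIG1 and SQLE were called in both, each in the same direction.

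**Figure D4:**
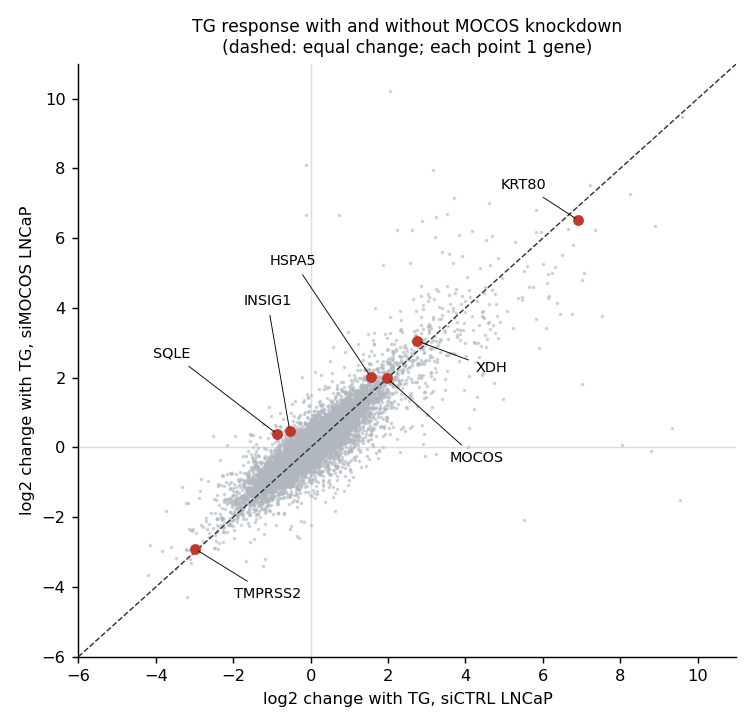
Each point is a gene, with its log2 change with TG in siCTRL LNCaP cells on the x axis and in siMOCOS LNCaP cells on the y axis, and the dashed line marks equal change. Named genes are in red: INSIG1 (-0.54 and 0.48) and SQLE (-0.86 and 0.38) lie above the line, and MOCOS (1.98 and 1.98) lies on it.

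Cholesterol genes were the list in which the arms stood furthest apart by count. Of 24 genes of cholesterol synthesis and uptake, 16 rose and 1 fell with TG in siMOCOS cells (median log2 0.51), while 8 rose and 5 fell in siCTRL cells (median log2 0.14). STARD4, a sterol carrier, rose by log2 1.55 (SE 0.111, adjusted p = 4.35e-09) in siMOCOS cells. MVD and HSD17B7, enzymes of the pathway, rose by log2 1.83 (adjusted p = 3.96e-06) and 1.28 (adjusted p = 1.73e-07), and SC5D by log2 0.80 (adjusted p = 4.1e-06).

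The difference between the arms was above 0 in 23 of the 24 cholesterol genes, against 57.6% of all genes tested. Of these 24, 9 were higher at an unadjusted p under 0.05, as were 593 of the 13806 genes tested. SQLE, the squalene epoxidase, named after its values were seen, went from 69.9, 63.2, 45.6 and 52 CPM to 84.9, 93.6, 62 and 59.3 CPM in siMOCOS cells, where the libraries overlap (log2 0.38, adjusted p = 0.062). In siCTRL cells it went from 81.3, 60.3, 65 and 65.5 CPM to 33.8, 38.4, 43.4 and 34.7 CPM (log2 -0.86, adjusted p = 0.000271). Its difference of 1.23 (95% interval 0.75 to 1.71) was not called (adjusted p = 0.092).

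**Figure D5:**
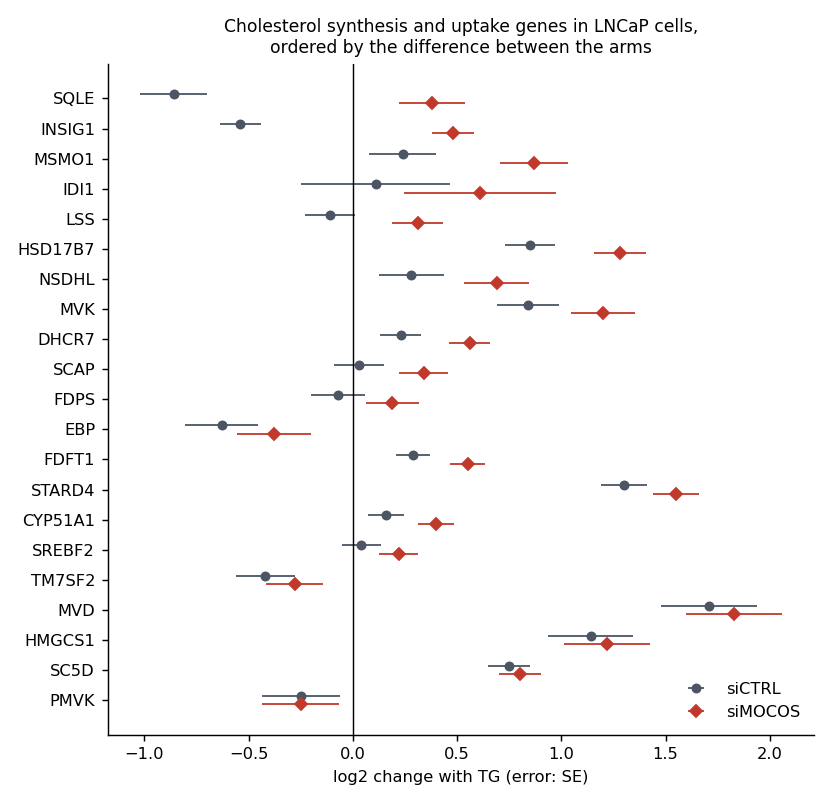
log2 change with TG (x axis, error bars SE) of 21 of the 24 tested cholesterol genes in siCTRL (circles) and siMOCOS (diamonds) LNCaP cells, ordered from top to bottom by the difference between the arms. The diamond lies to the right of the circle in the 21 genes shown, widest for SQLE and INSIG1, while in PMVK the points nearly coincide. The 3 genes not drawn are not reported here, and the 1 gene of the 24 with a difference below 0 (-0.05) is among them.

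No member of the other lists had a called difference in the edgeR fit of the 16 libraries, and the sign of the differences varied by list. The difference was above 0 in 23 of 24 ER lumen chaperones (median 0.23), 28 of 30 translocation and trafficking genes (median 0.18), 14 of 14 serine, asparagine and proline enzymes (median 0.29) and 12 of 13 amino acid transporters (median 0.25). It was above 0 in 46 of 51 ribosomal proteins (median 0.14), in 8 of 15 ER stress sensors (median 0.04) and in 12 of 25 ATF4 and CHOP effectors (median 0.00). With columns 1 and 2 alone as the knockdown group, members of the ER lists were called higher, among them HSPA5 (0.77), PDIA4 (1.13), SEC24D (1.32) and HERPUD1 (0.84). For HSPA5 the changes were log2 2.03 in siMOCOS and 1.55 in siCTRL cells, a difference of 0.47 (95% interval 0.09 to 0.85, adjusted p = 0.592). Without TG, HSPA5 had been lower after knockdown (log2 -0.81, adjusted p = 0.000319), and with TG the knockdown effect was not called (log2 -0.34, adjusted p = 0.0622). ASNS followed the same order, with a difference of 0.46 (95% interval 0.22 to 0.71, adjusted p = 0.231). In 25 p53 targets the difference was above 0 in 4 (median -0.27), and in 14 secreted factors in 2 (median -0.83). Over all genes tested the median difference was 0.05.

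Between the siMOCOS cells of the 2 lines, the TG response was higher in LNCaP for 32 of 14628 genes (0.219%) and lower for 25 (0.171%). The 16 siMOCOS libraries fitted alone called 2 and 1. TRIB2, a pseudokinase, was at 0.437 ± 0.168 and 0.989 ± 0.223 CPM without and with TG in LNCaP and at 26.4 ± 5.34 and 9.13 ± 0.837 CPM in C4-2B (SD, n = 4 each). OR51E2, a prostate olfactory receptor, was at 108 ± 9.89 and 160 ± 17.4 CPM in LNCaP and at 0.153 ± 0.108 and 2.82 ± 0.96 CPM in C4-2B (SD, n = 4 each). Both genes began from very different levels in the lines, and both were called with the 16 libraries alone. XDH and MOCOS, with differences of 0.42 (adjusted p = 0.784) and -0.18 (adjusted p = 0.978), were not called. SLC7A5, a carrier of large neutral amino acids, was the list member with a called difference, rising by log2 2.49 in LNCaP and 1.08 in C4-2B (adjusted p = 0.0481). That call was lost in limma voom (adjusted p = 0.112), with DESeq2 size factors (0.0518), with no filter on low counts (0.0532) and with the 16 siMOCOS libraries alone (0.361). It was also lost when any of 12 of those 16 libraries was left out, with differences of 1.21 to 1.71 and adjusted p up to 0.136, and kept without LNCaP library 2, LNCaP library 3 or 4 with TG, or C4-2B library 2 with TG.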

How the data were processed

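The deposited table holds expected counts for 29744 genes, which the authors deposited as length-scaled, by the table's name. The tools that the submitters' processing notes list are, with no role or order, Salmon 1.5.2, STAR 2.6.1d, FastQC 0.11.9, Trim Galore 0.6.7 and cutadapt 3.4, with the build hg38, and the gene annotation is not given in the sources used here. All 32 columns were used, and values were rounded, since 100% of those above 0 were not whole. The 16 LNCaP libraries were fitted as 4 groups with edgeR 4.0.16 (filterByExpr, TMM, quasi-likelihood test, 12 residual degrees of freedom), with Benjamini-Hochberg adjustment over 13806 genes. CPM use TMM factors. In any list, a gene near 0 without TG could pass the filter through its level with TG alone. C4-2B was compared in a fit of all 32 libraries (14628 genes). The fit was tested on simulated data.

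Members and lists were chosen with earlier results of these data known. Named genes are MOCOS, XDH and AOX1, the 10 greatest called rises and falls of at least 5 CPM with no overlap, up to 4 called members per list by adjusted p, members called against the direction of their list, and called differences. Other genes were named after their values were seen. Of 754 list symbols, 715 matched directly and 37 through an older symbol.

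Same-numbered siMOCOS columns with and without TG correlated in their deviations from the group means (0.11, 0.41, 0.17 and 0.29), and columns 1 with 2 and 3 with 4 did so as strongly (0.26 to 0.38). Columns 1 or 2 against columns 3 or 4 gave negative values (-0.4 to -0.12), some of which must occur since deviations in a group cancel out. The p-values take this split between pairs of columns as spread within a group. The values do not single out columns of the same number, and the labels do not tie the siMOCOS numbers to replicates. In siCTRL cells the values of same-numbered columns were -0.08 to 0.24. The main fit used no pairing, and the replicate block paired columns by number in both arms. Some named genes are not reported here or drawn, and they stay in the counts of their lists.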

Additional observations from a re-analysis of the deposited data

Results flagged for a closer look

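The TG response of INSIG1 differed between siMOCOS and siCTRL LNCaP cells by log2 1.02, by the edgeR test of the difference.

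For 7 named genes the TG response differed between siMOCOS LNCaP and siMOCOS C4-2B cells by the edgeR test of the difference, and levels are those of the fit of 32 libraries. The difference was log2 2.84 for CCDC80, a secreted matrix protein, at 0.656 and 5.96 CPM without and with TG in LNCaP and 7.74 and 9.31 CPM in C4-2B. It was 2.78 for TRIB2 and 1.42 for SLC7A5. It was -3.57 for OR51E2, -2.73 for NKAIN1 and -1.46 for PTPRR, a tyrosine phosphatase, which fell in LNCaP (13.9 to 8.17 CPM) and was higher with TG in C4-2B (3.34 and 5.45 CPM). LOC102724783 had a fitted difference of 5.29, which depends on the prior count, since all 4 siMOCOS LNCaP libraries without TG were at 0 (0.319 CPM with TG; 5.83 and 6.52 CPM in C4-2B). With the 16 siMOCOS libraries fitted alone, TRIB2 and OR51E2 were called and the others were not.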

How the results depend on the processing

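The counts of called genes stayed within 1.5 times of 3463 and 3022 under other scalings, DESeq2, limma voom, no filter, thinning, each pair of columns alone and each library left out (3048 to 3359 higher, 2785 to 3098 lower), except that a test against a 2-fold threshold called 629 and 239. Of 200 named genes, 28 changed their call under some alternative with the 2-fold threshold aside (104 with it), among them AOX1, CDC20, FZD5, HEY1, KRT8, SEC11A and SPCS1, and 0 reversed. The share of calls that were higher was 53.4%, and 47.3% with columns 1 and 2 alone.

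Differences from siCTRL cells depended on the setting. The higher and lower counts of 1 and 0 became 31 and 24 with DESeq2, 83 and 245 with columns 1 and 2 alone, 12 and 7 with columns 3 and 4 alone, 1 and 1 with upper quartile factors, and 0 and 0 with the 2-fold threshold or thinning. With the replicate block, which pairs columns by number within the siMOCOS and the siCTRL arm, they were 6 and 2. In the main comparison the block gave 3659 and 3318 and changed no call of a named gene. SQLE and ACTA2 were named genes whose difference it added, and neither labels nor values establish that pairing. Leaving out a library gave 0 to 1 and 0 to 0. The difference from C4-2B went from 32 and 25 to 2 and 1 with the 16 siMOCOS libraries alone, and to 17 to 32 and 15 to 34 with a library left out. The cause was not tested. Depth differed between the sides, and p-values pool 2 siRNAs.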

Other observations

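Besides INSIG1, 5 genes were called in opposite directions in the arms, and edgeR called none of their differences in the fit of the 16 libraries. DESeq2 called that of SOGA2 (1.03, adjusted p = 0.00185), as did edgeR with columns 1 and 2 alone (adjusted p = 0.0395). NUP93, a nuclear pore protein, was at 125 and 156 CPM without and with TG in siMOCOS cells and at 178 and 144 CPM in siCTRL cells (log2 0.31 and -0.30). SOGA2 was at 8.45 and 14 CPM and at 9.34 and 7.34 CPM (log2 0.74 and -0.35), and PGBD5, a transposase-derived gene, had log2 changes of 0.90 and -1.02. LOC100507424 and WDR27 went the other way, with log2 -0.60 and 0.65, and -0.64 and 0.58.

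The pairs of siMOCOS columns differed in some lists. ER lumen chaperones were called higher in 22 of 24 with columns 1 and 2 alone (median log2 1.39) and in 16 of 24 with columns 3 and 4 alone (median log2 0.69). For p53 targets 9 were higher and 6 lower in the former, and 12 and 2 in the latter. These counts come from separate fits, and the difference between the pairs was not tested.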
